A study of Homo sapiens with 12 samples.

Results

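The AP-1 family genes listed here are 10 genes that encode subunits of the transcription factor AP-1: JUN, JUNB, JUND, FOS, FOSB, FOSL1, FOSL2, ATF3, BATF and BATF3. They were taken by name from a table of 19866 protein-coding genes. Every peak of the RNaseH1 list and of the REXO4 list that touched a gene or the 10 kb on either side of it was kept. This gave 46 of the 54623 RNaseH1 peaks and 0 of the 1460 REXO4 peaks. The family was chosen by name and by the RNaseH1 fold of JUND, which was already known, so the RNaseH1 folds below are a description and no test was made on them.

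The peaks come from ChIP-seq of U2OS, a human osteosarcoma cell line, in 2 engineered forms. One carried a tet-on transgene for RNaseH1-D210N, a nuclease-dead form of the enzyme that cuts RNA paired with DNA. The other carried a tet-on transgene for REXO4-D386A, a nuclease-dead form of an RNA exonuclease family protein. Each line had 2 ChIP libraries and 1 input library with doxycycline (1 µg/ml for about 60 h), and the same number without it, 12 libraries in all. Chromatin was fixed with formaldehyde, sheared and collected on anti-Flag beads. In both lines the tagged mutant was added to whatever wild-type protein the cells make, and the labels do not say whether a line is 1 clone. The study asked whether the proteins bind R-loops, in which an RNA strand pairs with DNA and leaves the other DNA strand single. The values are 1 peak list per protein on hg38, so no value has a replicate error, and which libraries entered each list is not stated.

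AP-1 is a pair of basic leucine zipper proteins that grip each other through the zipper and DNA through the basic part. JUN proteins can pair with each other or with FOS proteins, whereas FOS proteins need a partner such as a JUN protein, and the pairs bind the TPA response element (TRE) or the related cyclic AMP response element (CRE). FOS, FOSB, JUN, JUNB and ATF3 are classic immediate early or stress-induced genes, JUND is known for steadier expression, and BATF and BATF3 act mainly in lymphoid and dendritic cells. R-loops are known to form near the starts of many transcribed genes, and JUN, JUNB and JUND have no introns.

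The promoters of 5 members show the range of sequence at the family's starts. Each line below gives the 250 bases before the annotated start, 5′ to 3′ on the gene's strand, from RefSeq on GRCh38.p14. Capitals mark the CRE (TGACGTCA), the related jun1 site (TGACATCA) of the JUN promoter, the TATA box (TATAAA), the CCAAT box (CCAAT) and the GC box bound by Sp1-type factors (GGGCGG), on either strand. JUND lies at chr19:18281623-18281872 on the minus strand and had the strongest peak of the family. JUN lies at chr1:58784048-58784297 on the minus strand. FOS lies at chr14:75278578-75278827 on the plus strand and had a peak of low fold at its start. BATF lies at chr14:75522219-75522468 on the plus strand, is poor in GC and had a small peak. ATF3 is shown at its outer start, chr1:212565157-212565406 on the plus strand, where no peak was called.
JUND: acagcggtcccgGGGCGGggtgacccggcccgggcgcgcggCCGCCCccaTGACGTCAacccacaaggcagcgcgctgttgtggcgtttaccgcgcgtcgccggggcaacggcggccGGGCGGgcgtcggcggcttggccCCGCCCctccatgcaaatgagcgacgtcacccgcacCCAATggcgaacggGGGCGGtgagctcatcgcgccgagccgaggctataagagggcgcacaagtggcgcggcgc
JUN: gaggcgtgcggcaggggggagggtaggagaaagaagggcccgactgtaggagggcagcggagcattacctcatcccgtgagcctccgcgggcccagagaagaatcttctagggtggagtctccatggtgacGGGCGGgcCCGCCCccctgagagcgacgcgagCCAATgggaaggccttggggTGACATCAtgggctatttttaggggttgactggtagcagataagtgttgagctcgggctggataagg
FOS: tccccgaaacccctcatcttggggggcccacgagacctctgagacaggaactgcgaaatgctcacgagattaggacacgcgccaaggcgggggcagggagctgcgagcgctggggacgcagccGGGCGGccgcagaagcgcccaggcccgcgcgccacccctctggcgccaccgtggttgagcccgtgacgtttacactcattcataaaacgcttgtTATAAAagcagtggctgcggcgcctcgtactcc
BATF: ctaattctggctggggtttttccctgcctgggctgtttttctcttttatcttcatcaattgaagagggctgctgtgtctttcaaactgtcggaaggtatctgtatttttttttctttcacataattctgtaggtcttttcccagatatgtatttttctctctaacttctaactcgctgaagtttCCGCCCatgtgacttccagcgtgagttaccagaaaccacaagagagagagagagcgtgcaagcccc
ATF3: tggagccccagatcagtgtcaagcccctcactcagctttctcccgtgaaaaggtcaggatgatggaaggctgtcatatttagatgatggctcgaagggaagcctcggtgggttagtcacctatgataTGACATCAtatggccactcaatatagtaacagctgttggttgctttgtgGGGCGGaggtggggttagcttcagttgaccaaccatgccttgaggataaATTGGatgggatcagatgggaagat

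All 10 AP-1 genes had at least 1 RNaseH1 peak in the gene or 10 kb around it. So did 85.1% of all protein-coding genes, and 81.8% of those no longer than ATF3, the longest member. The members carried 1 to 8 peaks each, with a median of 4.5, beside a median of 2 over all protein-coding genes. Peaks covered a median of 11.8% of a member's window and of 2.01% over all protein-coding genes, or 2.87% over those no longer than ATF3. JUNB was the most densely covered at 29.3% of its window, followed by JUND at 20.3%, FOSL1 at 16.8%, FOS at 15.9% and FOSB at 15.4%. FOSL2 (8.29%), JUN (8.15%), ATF3 (4.40%), BATF (2.59%) and BATF3 (1.97%) were covered less. The window of every member, dense or not, also touches another annotated gene. Of the 46 summits, 19 lay nearer to a boundary of another gene than to one of the member.

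**Figure D1:**
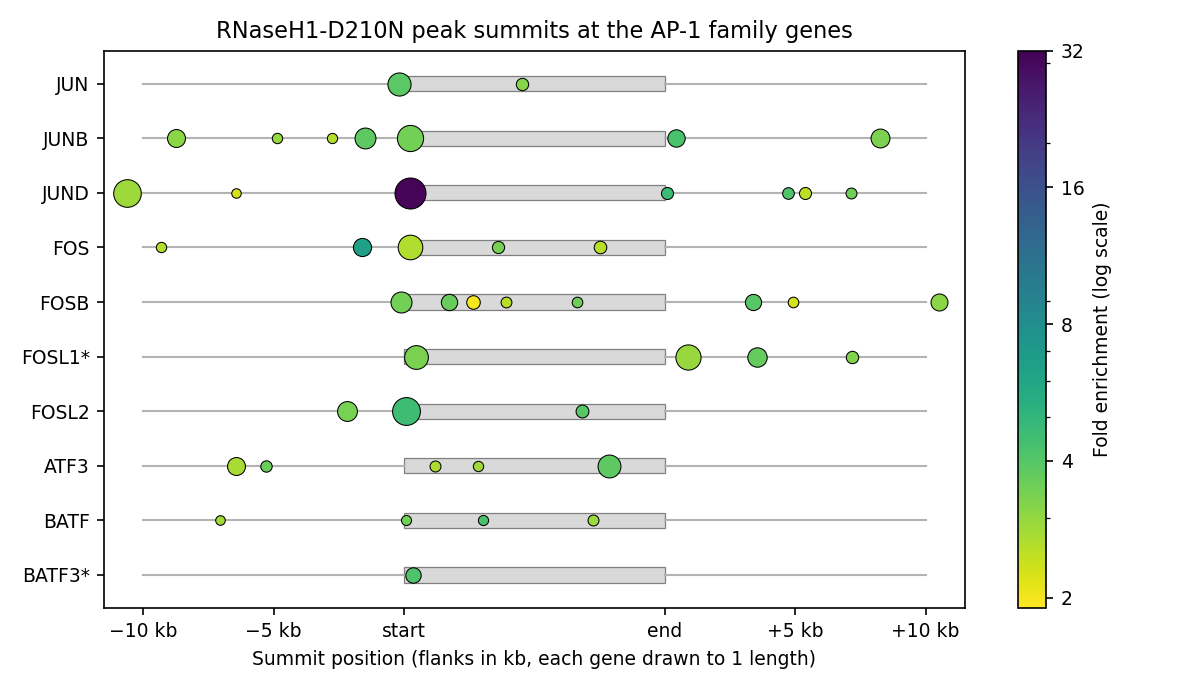
Summits of the RNaseH1-D210N peaks at each AP-1 gene, with the flanks in kb and each gene drawn to the same length from start (left) to end (right). Colour gives the fold enrichment on a log scale and a larger dot a wider peak. Genes marked with * have no strand in the table and are drawn from their upper boundary. The dark dot at the start of JUND is the peak of fold 31.1, and 9 of the 10 genes have a dot at the start or, for the marked genes, at the upper boundary.

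Of the 46 member peaks, 10 had their summit within 1 kb of a start or, for 2 members, of a gene boundary. In the whole list of 54623, summits this close to a protein-coding start in the table numbered 11906, without counting boundaries. The shares were similar, so no excess of peaks at starts is read for the family. Of the 8 members with a start in the table, 7 had an RNaseH1 summit within 1 kb of it, beside 67.6% of the 15843 protein-coding genes with a start there. The exception was ATF3, judged only by the 2 starts that the table holds for it. The 7 summits were 190 bp before the start of JUN and 136 bp before that of FOSB, and inside the gene at 39 bp (JUNB), 46 bp (JUND), 78 bp (FOS), 146 bp (BATF) and 202 bp (FOSL2). For FOSL1 and BATF3 distances are to the nearer gene boundary. They had a summit inside the gene at 393 and 448 bp from the upper boundary. FOSL1 had another 890 bp below its lower boundary, inside CCDC85B. Of these 10 start and boundary peaks, 8 were at least 1 kb wide. Among the 7 at a start in the table the count was 6, beside 29.3% of the 11906 RNaseH1 peaks with a summit within 1 kb of a protein-coding start, a background added after the values were seen. No test was made of this difference, and nothing particular to the family is read from it. The narrow ones were at BATF (281 bp) and BATF3 (657 bp).

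Among the JUN genes, JUND stood far above the others. JUND encodes the JUN protein with the steadiest expression, and its peak at chr19:18279989-18282647 was 2659 bp wide with its summit 46 bp inside the gene. The peak rested on 1476 fragments against an expected pileup of 46.4, a fold enrichment of 31.1 (95% Poisson interval 29.6 to 32.8, counting error only). These fragment numbers were recovered from the authors' fold and p-value for each peak. By fold the peak ranked 9 in the RNaseH1 list, by q it ranked 2 with a −log10 q of 1593, and by width it ranked 60. The peak covers the start, most of the gene and the MIR3188 hairpin upstream of it, which lies on the opposite strand at chr19:18282077-18282161. The mature microRNA is shown because it lies under the peak, with its seed (bases 2 to 8) in capitals.
hsa-miR-3188: aGAGGCUUugugcggauacgggg

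Elsewhere in the JUND window the folds were far lower. A second peak just past the end of the gene, with its summit 77 bp beyond it, had a fold of 4.66 (3.62 to 5.91) on 66 fragments. That fold stood above 95.3% of all RNaseH1 peaks. The other 5 peaks had folds of 2.28 to 4.14. Of these, 3 lay at or inside IQCN downstream and 1 at the lncRNA gene LOC124904653 upstream. The peak of fold 31.1 was thus a single region at the start of the gene, and its neighbours within 10 kb were in the range of the other members.

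JUN, which encodes c-Jun, had 2 peaks. The peak over its start, 1476 bp wide at chr1:58783165-58784640, had a fold of 3.92 (3.10 to 4.89) on 77 fragments. The second, inside the gene 1468 bp from the start, had 3.16 (2.25 to 4.33) on 37 fragments. The intervals of the peaks overlapped, and no peak was called in the rest of the 10 kb on either side. The annotation also places the divergent transcript JUN-DT in this window. The summit of the start peak lay inside neither gene, and whether the peak reaches JUN-DT was not examined.

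JUNB, which encodes a JUN protein that can restrain JUN, had 7 peaks. The peak over its start, 1892 bp wide at chr19:12791106-12792997, had a fold of 3.47 (2.87 to 4.16) on 114 fragments. The highest fold was at a different peak, 447 bp past the end of the gene, at 4.28 (3.47 to 5.22) on 95 fragments. Another, 1491 bp before the start, had 3.82 (2.99 to 4.80). The intervals of all 3 overlapped, so peaks flanked and covered this short gene at similar folds. The annotation places HOOK2, which encodes a microtubule linker, across the start of JUNB. The summits of the start peak and of the peak 1491 bp before the start also lay inside HOOK2. For these 2 peaks the gene to which the signal belongs cannot be told apart. A further 3 peaks upstream lay inside HOOK2. The peak farthest downstream was at PRDX2, which encodes a peroxiredoxin, at 3.32 (2.77 to 3.96).

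Among the FOS genes, FOS had its strongest peak before the start and not on it. FOS encodes c-Fos, the immediate early partner of JUN proteins. The peak at chr14:75276919-75277830, with its summit 1631 bp before the start, had a fold of 6.35 (5.15 to 7.74) on 96 fragments against an expected 14.3. The peak over the start had 2.65 (2.16 to 3.23) on 98 fragments against an expected 36.3. The fragment numbers were close and the expected pileups were not. The intervals of the folds did not overlap, but they take the expected pileup as exact. Error in the expected pileup, on which this difference rests, is therefore not covered. The upstream peak ranked 486 in the list, above 99.1% of all RNaseH1 peaks, whereas the start peak stood above 26.0% of them. Within the gene, FOS had 2 further peaks, with folds of 3.43 and 2.57, and a last one near the edge of the upstream window had 2.59.

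FOSB, which encodes a FOS protein with a truncated brain form known as ΔFosB, had the most peaks of the family, 8. The peak over its start had a fold of 3.47 (2.61 to 4.53) on 52 fragments. A peak 1235 bp inside the gene had 3.66 (3.0 to 4.42) on 105 fragments, and 3 more within the gene had 1.97, 2.57 and 3.54. The highest fold of the window, 4.01 (2.85 to 5.48), belonged to a peak 3376 bp past the end. Its summit was 46 bp from TRU-TCA1-1, the selenocysteine tRNA gene, and it was the only one of the 46 member peaks within 1 kb of a tRNA gene. The interval of the 1.97 peak (1.32 to 2.83) lay below those of the peaks 1235 bp inside and 3376 bp past the end, and the intervals of the start peak and of those peaks overlapped.

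FOSL1 and FOSL2 encode the FOS proteins Fra-1 and Fra-2, which lack the strong activation domain of c-Fos. FOSL2 had the highest fold on a start after JUND, 4.56 (3.81 to 5.40) on 131 fragments, in a peak 2140 bp wide at chr2:28391789-28393928. This region is shared with the antisense gene FOSL2-AS1, so the gene to which the signal belongs cannot be told apart. A peak 2184 bp upstream had 3.39 (2.64 to 4.30), and a small one deep in the gene had 4.00 (2.64 to 5.83) on 25 fragments. FOSL1 had 3.35 (2.82 to 3.95) on 140 fragments at its upper boundary, the most fragments of any member peak after JUND. Its highest fold, 3.71 (2.95 to 4.59), lay at FIBP, 22 bp from a boundary of that neighbour, and another peak covered CCDC85B at 2.95 (2.44 to 3.55).

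ATF3 encodes a stress-induced repressor and activator that pairs with JUN proteins, and it is known to be transcribed from more than one promoter. Neither of its starts in the table, at 212565407 and 212615018 on chromosome 1, had a summit within 1 kb. A start that the table lacks would be missed here, so a peak at another ATF3 promoter cannot be told from one inside the gene. The widest and highest of its 5 peaks lay inside the gene at chr1:212608209-212609654. Its summit was 43530 bp past the outer of these starts and at position -6081 relative to the inner. It was 1446 bp wide with a fold of 3.83 (3.10 to 4.68) on 94 fragments. The other 4 peaks had 2.70 to 3.64 on 17 to 49 fragments. The start and boundary peaks of the other members ran from 281 bp and 15 fragments at BATF to 2659 bp and 1476 fragments at JUND. The widest ATF3 peak lay within this range. So do the medians of the whole list, 365 bp and 23 fragments, and nothing is read from it.

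BATF and BATF3 encode small AP-1 subunits with no activation domain of their own. BATF had 4 narrow peaks on few fragments. The one over its start had 15 fragments against an expected 3.57, a fold of 3.5 (2.06 to 5.63), and the highest, 7388 bp inside the gene, had 4.26 (2.71 to 6.41) on 21 fragments. BATF3 had a single peak, at its upper boundary, with 4.19 (3.32 to 5.22) on 78 fragments. The highest folds of BATF, BATF3 and FOSL2 were close, but the fragments behind them were 21 at BATF, 78 at BATF3 and 131 at FOSL2. A fold near 4 therefore stood for peaks of very different depth within the family.

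**Figure D2:**
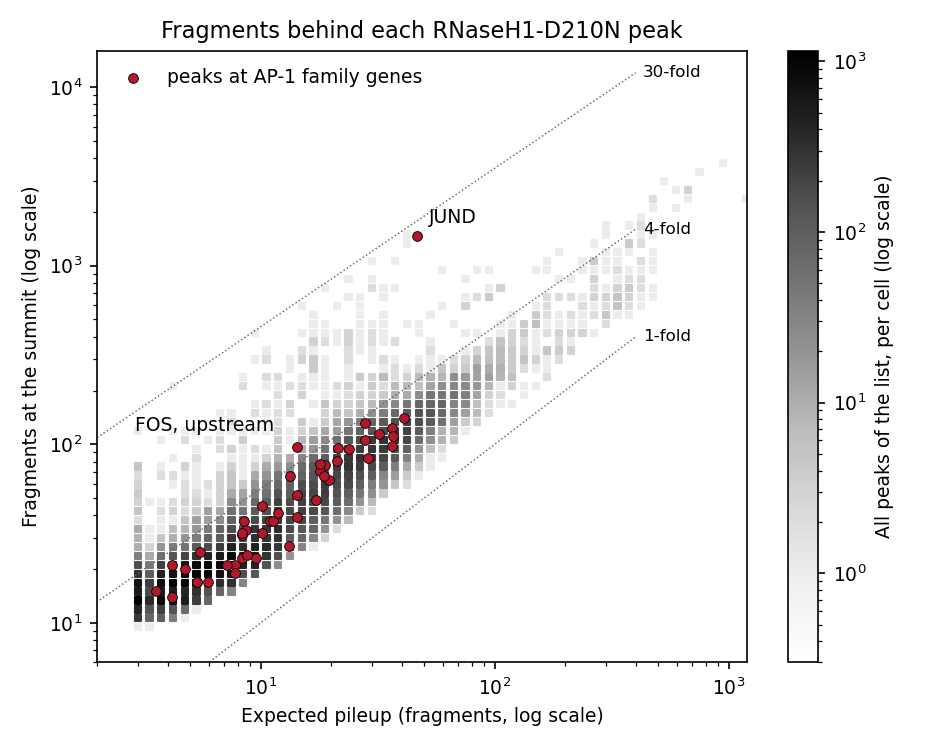
Fragments at the summit against the expected pileup of RNaseH1-D210N peaks, both on log scales, with dotted lines of equal fold. Red dots are the 46 peaks at AP-1 genes and grey cells all peaks of the list, darker where there are more. JUND, at 1476 fragments against 46.4, lies near the line of 30-fold, the other member peaks lie between 14 and 140 fragments, and the FOS upstream peak stands at 96 against 14.3.

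Ordered by their highest fold, the members ran from JUND (31.1) through FOS (6.35), FOSL2 (4.56), JUNB (4.28), BATF (4.26), BATF3 (4.19), FOSB (4.01), JUN (3.92) and ATF3 (3.83) to FOSL1 (3.71). JUND was 4.91 times as high as FOS, and their intervals did not overlap. From FOS downward, the intervals of all neighbours in this order overlapped, so the order among these 9 genes is not resolved by counting error alone. The interval of FOS lay above those of JUN, ATF3 and FOSL1. Of the 10 members, 7 had a peak of fold 4 or more, beside 27.0% of all protein-coding genes. Since the family was chosen with its JUND fold known, nothing is read from this count. Taken peak by peak, 9 of the 46 had a fold of 4 or more before rounding, beside 13.7% of the whole list, and the small FOSL2 peak printed as 4.00 lay just under that limit. The median of the 46 was 3.37 beside 3.07 over the list.

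**Figure D3:**
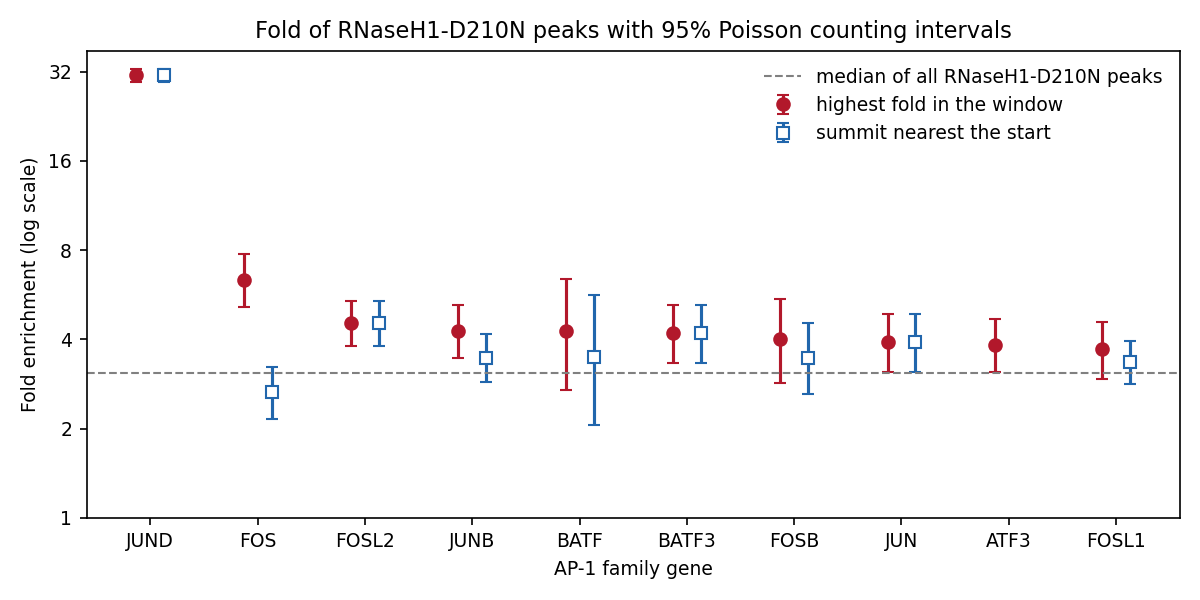
Fold enrichment on a log scale of the highest RNaseH1-D210N peak of each AP-1 gene (filled circles) and of the peak nearest its start, or a gene boundary for FOSL1 and BATF3 (open squares). Bars are 95% Poisson intervals that cover counting error of the fragments only and take the expected pileup as exact. The dashed line is the median of the list, 3.07. JUND stands alone, FOS differs between its upstream and its start peak, and the intervals of the other 8 genes overlap.

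**Figure D4:**
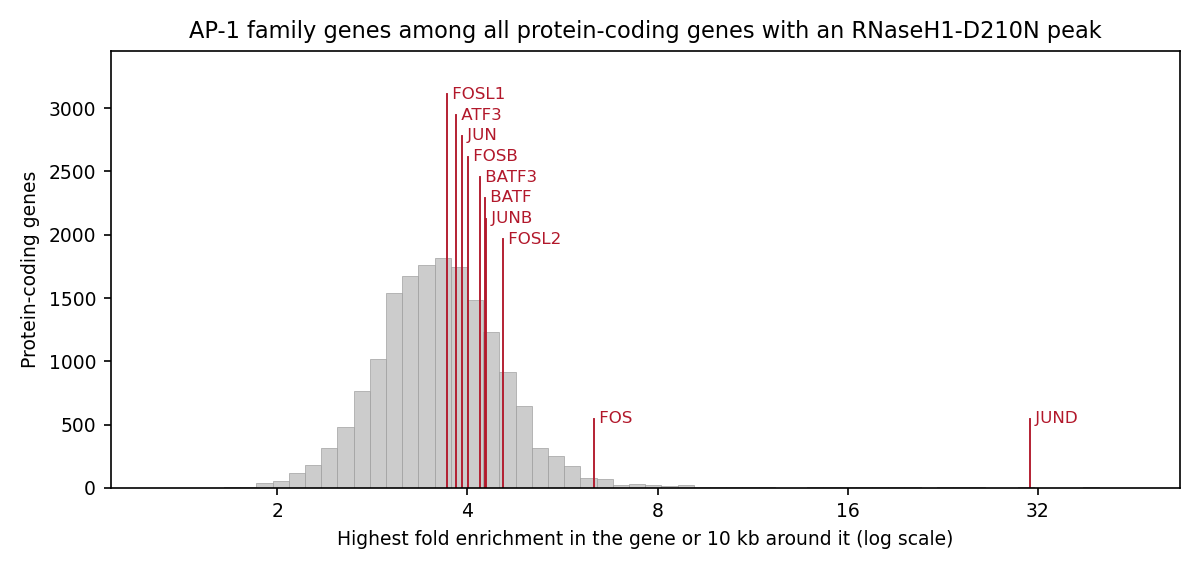
Highest RNaseH1-D210N fold in the gene or 10 kb around it, on a log scale, for the 16907 protein-coding genes with a peak (grey bars) and for the AP-1 genes (red lines, whose height has no meaning). The other 8 members lie between 3.71 and 4.56, near the body of the distribution with its median of 3.61, whereas FOS and JUND lie in its upper tail.

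Few genes shared the height of the JUND peak. Protein-coding genes were ranked by the highest fold in the gene or 10 kb around it, where JUND and its neighbour IQCN held rank 8 through the same peak. The next genes above were ZNF839 at 31.6 (29.5 to 33.9) and, through another single peak, HES7 and ALOXE3 at 36.6 (33.7 to 39.7). The next below were MDM4, with an interval of 26.9 to 33.4,, ERRFI1 at 28.7 (27.1 to 30.3) and SDR42E2 at 27.9 (25.4 to 30.6). The intervals of ZNF839, MDM4, ERRFI1 and SDR42E2 overlapped that of JUND, and that of HES7 and ALOXE3 did not. All of these summits except that of JUND and that of ERRFI1 had a tRNA gene within 1 kb. ERRFI1, which encodes a feedback inhibitor of EGF receptor signalling, had a peak with a similar number of fragments and a summit as close to its gene boundary, but a narrower one, 1368 bp wide. The ERRFI1 peak had 1308 fragments against an expected 44.6, with the summit 28 bp inside the gene, and it ranked 3 by q directly after JUND. The peak ranked 1 by q lay beside the tRNA gene TRD-GTC2-10.

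None of the AP-1 genes listed here had a REXO4 peak. The count was 0 of 10, beside 7.01% of all protein-coding genes and 5.62% of those no longer than ATF3. The REXO4 list gives no value where no peak was called, so a weak signal at these genes cannot be read from it. The nearest REXO4 peak was 33.5 kb from JUNB, inside BEST2, with a fold of 2.12 (1.64 to 2.71). For 8 of the 10 members the nearest lay more than 100 kb away, up to 5453 kb for JUN, and for JUND it was at 306 kb. The share of all protein-coding genes at such distances was not computed, so nothing particular to the family is read from them. None of the 46 RNaseH1 peaks of the family therefore overlapped a REXO4 peak, beside 2.03% of all RNaseH1 peaks. With an RNaseH1 list 37.4 times as long as the REXO4 list, so few overlaps are common to most RNaseH1 peaks, and nothing particular to the family is read from this count.

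Base composition at the starts varied widely among the 8 members with a promoter sequence. FOSL1 and BATF3 had none, so they are left out here and in the motif search. Over the 300 bases from 250 before to 50 after the start, GC content was 77.0% at JUND, 71% at JUNB, 68.7% at FOSL2, 64.7% at FOS, 64.0% at FOSB and 62.0% at JUN. It was 46.0% at BATF and, at the outer and inner starts of ATF3, 48.0% and 46.3%. JUND also had the most CpG dinucleotides, 49, above 98.0% of all protein-coding promoters, beside 29 at JUNB and 16 at JUN. Of the 9 member promoters, 7 lay in an RNaseH1 peak, and both without one were those of ATF3. Over 22199 protein-coding promoters, 57.3% lay in a peak, and the share was 7.94% in the poorest of 5 bins of GC content and 85.6% in the richest. The median fold of those peaks lay between 3.04 and 3.16 in every bin. BATF, in the poorest bin, was thus 1 of 354 promoters with a peak among the 4459 of that bin. JUND lay in the richest bin, and JUNB and FOSL2 in the bin below it, with folds of 3.47 and 4.56 at their starts. The part of GC content in the height of the JUND peak was not tested. The skew of G over C was 0.32 at JUN, the highest of the 9 promoters, and 0.07 at JUND.

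**Figure D5:**
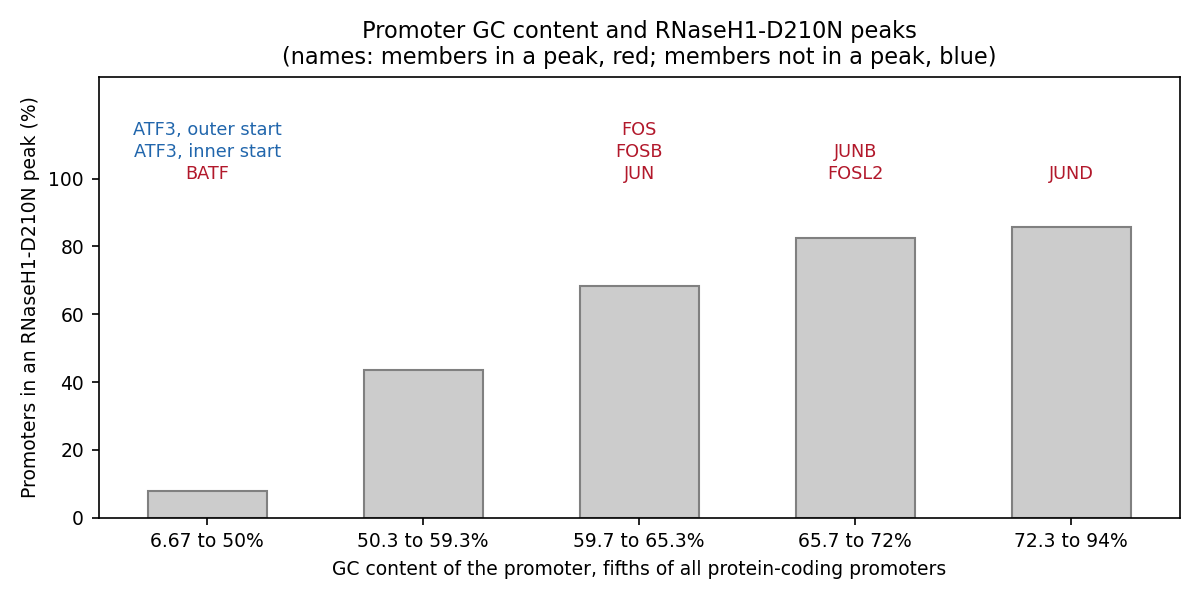
Share of protein-coding promoters that lie in an RNaseH1-D210N peak (bars, %) by 5 bins of promoter GC content. Names above the bars place the 9 AP-1 promoters in these bins, red where the promoter lies in a peak and blue where it does not. The share is 7.94% in the poorest bin, which holds BATF and both ATF3 starts, and 85.6% in the richest, which holds JUND.

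Motifs at the starts differed between members. The CRE (TGACGTCA) was present at JUND, 200 bp before the start, and in no other of the 9 member promoters. It is held by 2.26% of all protein-coding promoters. The TRE (TGACTCA) was present at FOSL2, just inside the gene, and 4.01% of promoters hold it. The jun1 site (TGACATCA), which was added to the search after the values were seen, was present at JUN 67 bp before the start and at the outer start of ATF3, beside 2.13% of promoters. A TATA box lay about 30 bp before the start of FOS, JUNB and FOSB and farther upstream of the inner ATF3 start, beside 9.47% of promoters. JUND had 6 GC boxes, the most of the 9 promoters, of which 7 had at least 1, beside 56.3% of all. The CCAAT box was found at JUN, JUNB, JUND and the outer start of ATF3, beside 34.7% of all promoters. The CArG box, the binding site of serum response factor, was found in none of the 9 windows and in 1.25% of all, which says only that its letters are not within these 300 bases. All motifs were searched on both strands, and none of them overlap in the sequences printed above.

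RNaseH1 peaks were also counted at the genes of 5 related lists, which were chosen with earlier results of these data known. Over all protein-coding genes 85.1% had a peak in the same window, so nothing is read from the counts of genes with a peak. All 25 other immediate early genes had one, led by ERRFI1 (28.7), EGR1 (7.66), a zinc finger activator induced with FOS, and ZFP36 (6.51), an mRNA decay factor whose summit lay within 1 kb of the tRNA gene TRI-TAT1-1. Of these 25 genes, 14 (56.0%) had a fold of 4 or more, beside 27.0% of all protein-coding genes. All 42 other bZIP genes had a peak, led by CREB3L4 (8.79), TEF (6.26) and DBP (6.0), of which TEF and DBP are clock-controlled activators, and 12 (28.6%) reached 4. All 23 kinases upstream of AP-1 had one, led by RPS6KA2 (4.84), RPS6KA5 (4.54) and RPS6KA3 (4.39), and 8 (34.8%) reached 4. All 7 genes of SRF and its cofactors had one, led by SRF (4.31), MYOCD (4.29) and ELK3 (4.28), and 5 reached 4. Of 20 textbook AP-1 target genes, 16 (80%) had one, led by MT2A, a metallothionein (5.69), CCND1, cyclin D1 (5.04), and SPP1, osteopontin (4.52, at 9903 bp from the gene), and 7 (35.0%) reached 4. The median highest fold among genes with a peak was 4.22 for the AP-1 genes, 4.2 for SRF and its cofactors, 4.14 for the other immediate early genes, 3.89 for the kinases, 3.76 for the targets and 3.55 for the other bZIP genes, beside 3.61 over all protein-coding genes. The lists differ in gene length, with medians from 4501 bp for the other immediate early genes to 96407 bp for the kinases, and a longer gene gives a wider window in which to find a peak.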

How the data were processed

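Peaks were called with MACS2 2.1.0.20150731 on hg38, as far as the submitters' processing notes name a caller and a build. Those notes also list SAMtools 1.17, HISAT2 2.2.1, deepTools 3.5.1, Trim Galore 0.6.10 and Cufflinks. Which control, libraries and threshold were used is not stated. The deposited fold enrichment is a ratio computed by the authors for each peak, and so are its −log10 p-value and −log10 q-value. The largest q in the RNaseH1 list was 0.198.

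The members and lists were chosen with earlier results of these data known. Members were all named; of each other list, the 3 genes of highest fold; for JUND, the 3 protein-coding genes ranked next above and next below. Genes outside this rule were named after their values were seen. A peak belonged to a gene when it touched the gene or 10 kb around it. Genes came from a RefSeq table (GRCh38.p14) of 59792 genes, of which 58961 in chromosome order were kept. Fragments were recovered as the whole number whose Poisson tail gives the p at that fold, ((fragments + 1) / (expected + 1)), within 0.05 fragments. This worked for all 54623 RNaseH1 and 1459 of 1460 REXO4 peaks, and for all 1000 simulated RNaseH1 peaks. Intervals are exact Poisson intervals (95%) of the fragments. They take the expected pileup as exact and leave out variation between libraries. Folds were compared within a list only. Alternatives were other windows, q thresholds, overlaps and start distances. Tools were pandas 2.3.3, SciPy 1.17.1, NumPy 2.4.6 and, for the plots, matplotlib 3.10.9 under Python 3.11.15.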

Additional observations from a re-analysis of the deposited data

How the results depend on the processing

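The 46 RNaseH1 peaks of the family became 27 with a window of 1 kb and 24 with the gene body only. With 5 kb, a stricter q or summits inside the window, 33 to 44 remained. All 10 members had a peak, and 0 had a REXO4 peak, under every one of these settings. A summit within 1 kb of a start or boundary was the highest of its gene at 4 members, and at 5 when the peak of lowest q stood for the gene. The 2 peaks that touch a window with their summit outside it lie at LOC124904653 near JUND and at RTN2 near FOSB (folds 2.87 and 3.09). The nearest RNaseH1 peak left out was 10.9 kb from FOSL1, with a fold of 2.70. All 18 counts of the related lists stayed within 1.5 times the count reported. No paired analysis was possible because the lists hold no value per library, and for the same reason no library could be left out.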

Other observations

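REXO4 peaks were called at 6 of the 42 other bZIP genes (14.3%), beside 7.01% of all protein-coding genes: CREB1, JDP2, MAF, MAFA, MAFG and NFIL3. These genes were named after the values were seen. JDP2, which encodes a repressor that pairs with JUN proteins, lies on chromosome 14 between FOS and BATF. Its REXO4 peak at chr14:75428079-75428485 had a fold of 2.1 (95% Poisson interval 1.74 to 2.52, counting error only) on 116 fragments against an expected 54.7. It lay 146 kb from FOS and 94.0 kb from BATF, was the nearest REXO4 peak to both, and overlapped 2 RNaseH1 peaks. CREB1, which encodes the cyclic AMP response factor, had a REXO4 fold of 2.38 (1.95 to 2.88) in a peak that overlapped an RNaseH1 peak of fold 3.49. MAF, which encodes a large Maf activator, had a fold of 3.54 (2.38 to 5.10) on 27 fragments and was the only one of the 6 whose REXO4 peak overlapped no RNaseH1 peak.

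Of the 25 other immediate early genes, 2 had a REXO4 peak, each inside the gene and each overlapping an RNaseH1 peak. They were KLF2, a zinc finger factor (1.93, 1.58 to 2.34), and DUSP5, a phosphatase that acts on ERK (1.81, 1.56 to 2.09). The kinases upstream of AP-1, SRF with its cofactors and the textbook AP-1 target genes had 0 of 23, 0 of 7 and 0 of 20.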
